A study of Mus musculus with 7 samples.

Results

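The genes described here were those lower than wild type in thymus with 1 mutation of Ikaros and higher than wild type in thymus with another. They were chosen by their measured levels. A gene was selected if its mean over the 7 libraries was at least 1 RPKM (a read count corrected for exon length and library size), if both ZnF1-/- libraries lay below the lowest wild type library, if both ZnF4-/- libraries lay above the highest, and if the ZnF4-/- mean was at least 2 times the ZnF1-/- mean. Of 16734 genes in the table, 10498 had a mean of 1 RPKM or more, and 132 met the remaining conditions. Leaving out 12 of these by name, as the rule asks, gave 120 genes (1.14% of the 10498), called the opposed genes below. Of these, 22 were entries of the protocadherin gamma cluster, Pcdhg, which share exons and count as 1 locus, so that the opposed genes made 99 loci.

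Ikaros is the zinc finger protein made from Ikzf1 and controls lymphoid development. It both represses and activates genes and recruits chromatin remodelling complexes. Its DNA-binding domain is a row of zinc fingers. The inner fingers bind the core motif GGGAA, and the outer ones, the first and the fourth, modulate which sites are bound. Loss of Ikaros activity in developing T cells of the mouse leads to leukaemia.

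Wild type (strain label wt_c57BL/6) was measured in 3 libraries, numbered 1, 2A and 2B, mice homozygous for loss of the first finger (Ikaros_ZnF1-/-) in 2, and mice homozygous for loss of the fourth (Ikaros_ZnF4-/-) in 2. All were whole thymus at 4 weeks of age, made into a cell suspension, and polyadenylated RNA was sequenced. The strain label of the mutants names the mutation and no background, and the mutations are not limited by the labels to T cells. The question behind the comparisons is the part of each finger in gene control.

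The number of genes at 1 RPKM or more ran from 10185 to 10695 over the libraries, and the thymocyte genes Cd3e, Cd4, Cd8a and Rag1 stood between 302 and 965 RPKM in every library. Replicate 1 of each group was read as 76 bp and the others as 50 bp. These 2 batches also differed in sex, since all 76 bp libraries held Xist (90.6 to 109 RPKM) and all 50 bp ones Ddx3y (13.2 to 17.4 RPKM), so batch and sex cannot be told apart. Total reads are not stated in the sources used here. Whole-read steps in the low values, within 0.006 RPKM, were best matched by depths of 20130000, 14280000 and 6310000 reads for the 76 bp libraries of wild type, ZnF1-/- and ZnF4-/-, where 46.3%, 52.6% and 61.7% of the low values fell on a step against 15.8%, 15.7% and 13.8% by spacing alone. The depth of the 50 bp libraries could not be recovered. At these depths an opposed gene had a median of 192, 97.2 and 137 reads in the 3 libraries, and 10 opposed genes had under 10 reads in ZnF1-/- replicate 1.

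Most opposed genes were genes of low level in wild type thymus. On the log2(RPKM + 0.5) scale most moved further from wild type in ZnF4-/- than in ZnF1-/-. Their median wild type level was 2.58 RPKM against 9.82 RPKM over all tested genes. In wild type 98 of the 120 stood at 1 to 10 RPKM, 15 stood under 1 RPKM and 7 at 10 RPKM or more, whereas 49.4% of all tested genes were at 10 RPKM or more. The distance from wild type on that scale was larger in ZnF4-/- for 96 of the 120 and for 74 of the 98 outside the Pcdhg cluster. The added 0.5 shrinks changes of low values most, so it narrows the ZnF1-/- arm more and favours this count. As plain ratios of mean RPKM, the median was 2.24 for ZnF4-/- over wild type and 1.58 for wild type over ZnF1-/-. Outside the Pcdhg cluster these were 1.93 and 1.70. The median log2 change, on the log2(RPKM + 0.5) scale used throughout, was -0.50 in ZnF1-/- and 1.02 in ZnF4-/- against wild type, and -0.55 and 0.83 without the Pcdhg entries. Over all tested genes it was -0.02 and -0.05. These directions are what the rule selected on, so they are descriptions and not findings.

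**Figure D1:**
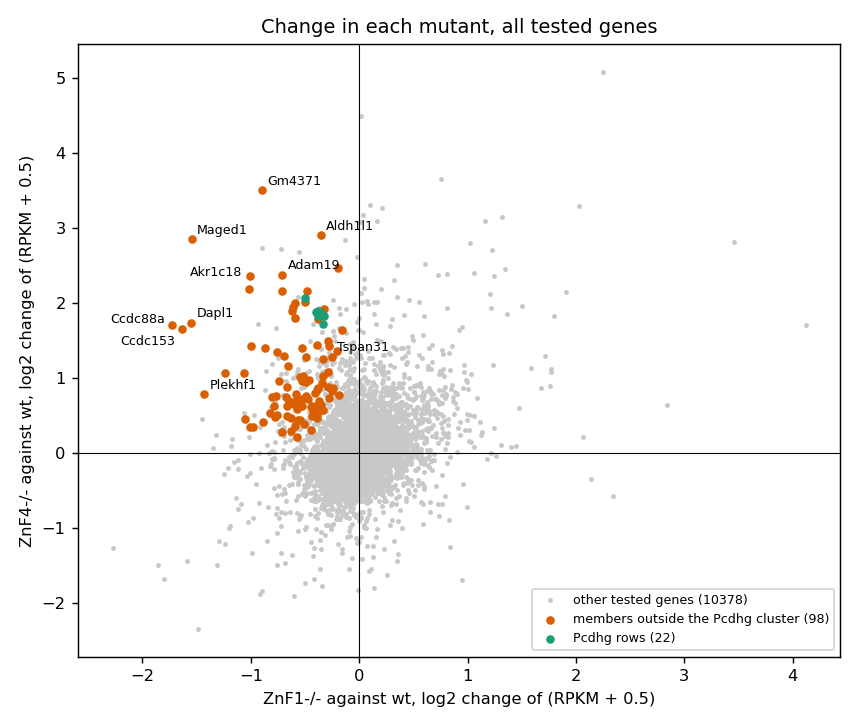
Log2 change of each tested gene in ZnF1-/- against wild type (horizontal axis) and in ZnF4-/- against wild type (vertical axis), on the log2(RPKM + 0.5) scale. The 98 opposed genes outside the Pcdhg cluster (orange) and the 22 Pcdhg entries (green) lie in the upper left by selection; the green points fall almost on each other, and most orange points sit farther from 0 vertically than horizontally.

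The pattern was more frequent than its mirror image. Without the ratio of 2, 190 genes were below wild type in both ZnF1-/- libraries and above it in both ZnF4-/- libraries, and 66 showed the reverse. With the ratio, the pattern held for 132 genes and the reverse for 21. The 190 and the 132 include the 22 Pcdhg entries, which count as 1 locus. Both mutants lay above wild type in 298 genes and below it in 206. Both ZnF1-/- libraries were below the lowest wild type library in 6.99% of tested genes, and both ZnF4-/- libraries were above the highest in 12.5%.

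The fit of all tested genes (limma, adjusted over them) was read only for its errors and for the share called, since the rule used all 3 contrasts of genotype. In ZnF4-/- against ZnF1-/-, 98 of the 120 opposed genes were called higher where 2.02% of all tested genes were, and 76 of the 98 outside the Pcdhg cluster. In ZnF4-/- against wild type, 60 were called higher (38 outside Pcdhg) where 2.24% of all were. In ZnF1-/- against wild type, 1, Maged1, was called lower, the only gene called lower among all tested (0.00953%). At an unadjusted p under 0.05, limma gave 120, 107 and 65 opposed genes in these 3 contrasts, of 963, 1063 and 404 of the 10498 tested genes in either direction. With the replicate number as a block, all 120 were called in ZnF4-/- against ZnF1-/- (5.19% of all genes), 98 were higher in ZnF4-/- against wild type (6.1%) and 11 lower in ZnF1-/- against wild type (0.305%).

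Single libraries weighed on these counts. The 60 calls in ZnF4-/- against wild type became 10 without ZnF4-/- replicate 2, and the 98 calls between the mutants became 46 without it, 54 without ZnF1-/- replicate 1, 55 without ZnF4-/- replicate 1 and 62 without ZnF1-/- replicate 2. Without ZnF4-/- replicate 2, 110 of the 120 still had a mean of 1 RPKM and were fitted (113 without replicate 1), and their median log2 change was 0.94 in ZnF4-/- against wild type and 1.49 between the mutants. The call of Maged1 in ZnF1-/- against wild type was lost when any 1 of the 6 libraries other than wild type replicate 1 was left out.

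The opposed genes with the 12 largest ratios of ZnF4-/- to ZnF1-/- were under 1 RPKM in ZnF1-/- and stood at 2 to 15 RPKM in ZnF4-/-. Maged1 encodes a MAGE family protein that binds neurotrophin receptors and takes part in apoptosis (X chromosome, 91780813 to 91787482, minus strand; all gene positions are of build mm9). It was at 1.24, 1.59 and 1.65 RPKM in wild type, at 0.17 and 0.19 in ZnF1-/- and at 13.03 and 14.7 in ZnF4-/-. The 3 groups were far apart and both libraries of each mutant agreed closely. Its log2 change was -1.55 ± 0.17 (SE) in ZnF1-/- and 2.85 ± 0.17 in ZnF4-/-. About 6.71 reads stood behind the level in ZnF1-/- replicate 1 and 69.0 behind wild type replicate 1.

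Gm4371, a predicted gene that had no position in the annotation used, stood in wild type at 0.98, 0.67 and 0.67 RPKM. It was at 0.09 and 0.28 RPKM in ZnF1-/- and at 14.4 and 13.4 in ZnF4-/-, the largest log2 change of an opposed gene in ZnF4-/- against wild type (3.50 ± 0.21). Akr1c18, which encodes the enzyme that inactivates progesterone (chromosome 13, 4131861 to 4149900, minus strand), was at 0.50, 0.63 and 0.57 RPKM in wild type. In ZnF1-/- it was listed at 0 in replicate 1 and at 0.06 RPKM in replicate 2, and in ZnF4-/- at 3.56 and 6.86. It headed the ranking by ratio, but on a ZnF1-/- mean of 0.03 RPKM, and reads shared with its close relatives of the Akr1c family could be split between them by the authors' counting. Aldh1l1, a folate enzyme (chromosome 6, 90436421 to 90550197, plus strand), was at 0.16, 0.30 and 0.25 RPKM in wild type, 0.09 and 0.06 in ZnF1-/- and 4.05 and 6.14 in ZnF4-/-. In ZnF1-/- it was thus only 0.07 RPKM below the lowest wild type library at the nearest point, a level of about 4 reads.

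Ccdc88a encodes Girdin, an actin-binding protein of cell migration (chromosome 11, 29273658 to 29410812, plus strand). Its levels were 2.41, 1.30 and 1.54 RPKM in wild type, 0.23 and 0.11 in ZnF1-/- and 6.73 and 6.71 in ZnF4-/-. On the log2(RPKM + 0.5) scale it had the largest distance below wild type in ZnF1-/- of all opposed genes (-1.72 ± 0.24). On that scale its distance above wild type in ZnF4-/- was as large (1.71 ± 0.24). As plain ratios of mean RPKM its lower arm was the wider, with wild type 10.3 times ZnF1-/- and ZnF4-/- 3.84 times wild type. By that ratio Akr1c18 lay farther below wild type, at 18.9 times. About 30.5 reads in ZnF1-/- replicate 1 and 451 in wild type replicate 1 stood behind the levels of Ccdc88a.

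The remaining 7 of the 12 fell into those with a visible and those with a marginal lower arm. Npnt, which encodes the matrix protein nephronectin (chromosome 3, 132544709 to 132613255), was at 0.16 to 0.18 RPKM in wild type, 0.13 and 0.05 in ZnF1-/- and 2.96 and 3.51 in ZnF4-/-. Its difference below wild type was 0.03 RPKM at the nearest point, so nearly all of its distance between the mutants lay above wild type. Dapl1, found in quiescent and naive T cells (chromosome 2, 59322710 to 59343077), was at 1.13, 2.66 and 1.32 RPKM in wild type, listed at 0 and at 0.54 in ZnF1-/-, and at 4.60 and 9.23 in ZnF4-/-. Within each genotype Dapl1 was higher in the 50 bp libraries, by 0.82 log2 units (limma with group and batch, adjusted p = 0.0176).

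Pcsk1, a protease that processes prohormones (chromosome 13, 75227274 to 75269946), was at 0.65, 1.55 and 0.66 RPKM in wild type, 0.14 and 0.25 in ZnF1-/- and 5.32 and 6.5 in ZnF4-/-. Scd1, the fatty acid desaturase (chromosome 19, 44468941 to 44482199), was at 0.45 to 0.53 RPKM in wild type, 0.22 and 0.10 in ZnF1-/- and 3.57 and 2.41 in ZnF4-/-. For both, the ZnF4-/- libraries were over 3 times the highest wild type library. Lphn2, an adhesion G protein-coupled receptor (chromosome 3, 148478550 to 148652280), was at 0.50 to 0.58 RPKM in wild type, 0.23 and 0.14 in ZnF1-/- and 3.03 and 4.34 in ZnF4-/-. Spry2, a feedback inhibitor of receptor tyrosine kinase signalling (chromosome 14, 106291166 to 106296036), was at 1.28, 1.37 and 1.14 RPKM in wild type. It was at 0.43 and 0.74 RPKM in ZnF1-/- and at 6.23 and 8.66 in ZnF4-/-, with log2 changes of -0.71 ± 0.21 and 2.16 ± 0.21. Rbpms, an RNA-binding protein (chromosome 8, 34893116 to 35040313), was at 0.56 to 0.71 RPKM in wild type, 0.19 and 0.27 in ZnF1-/- and 3.09 and 4.36 in ZnF4-/-.

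**Figure D2:**
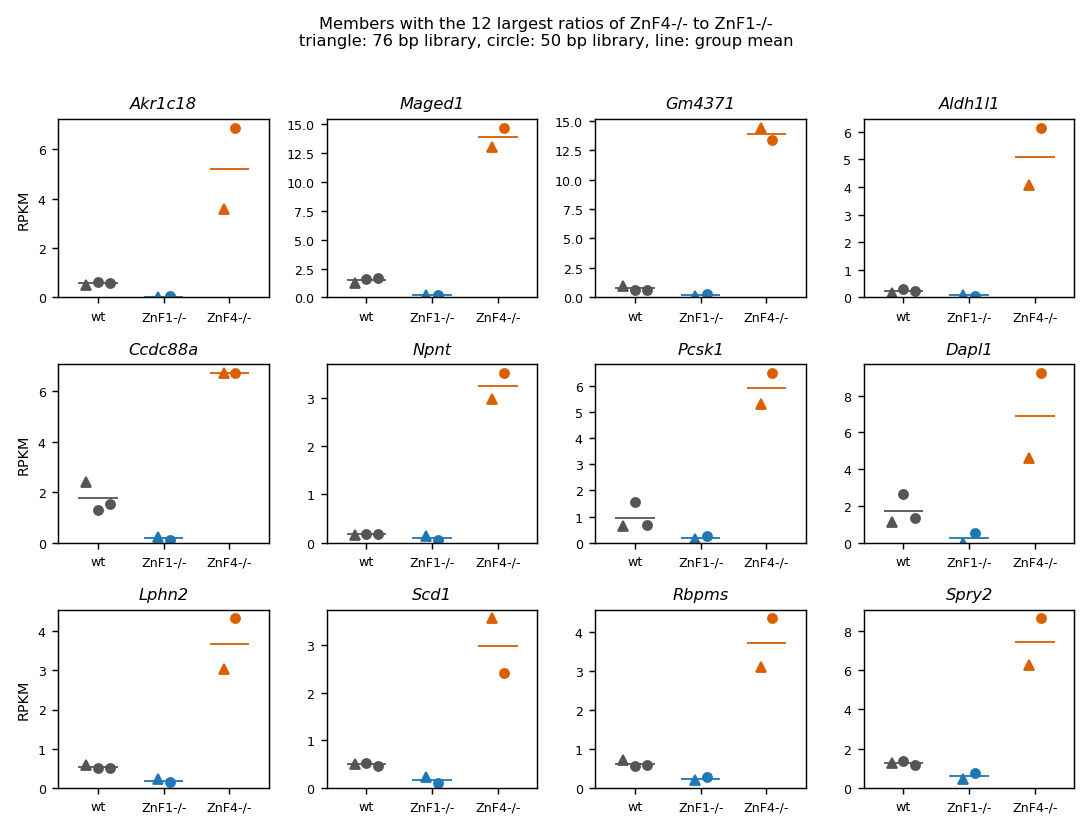
RPKM of the 12 opposed genes with the largest ratio of ZnF4-/- to ZnF1-/- in each library (vertical axis, from 0), by genotype; triangles are 76 bp and circles 50 bp libraries, and lines are group means. In each panel the wild type points lie between the mutants by selection, close above ZnF1-/- for Npnt and Aldh1l1 and clearly above it for Maged1 and Ccdc88a.

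Because Ikaros binds GGGAA, the 250 bases upstream of the start are shown for the 4 genes of largest ratio that have an entry in the RefSeq promoter table (build GRCm38.p6, 5′ to 3′ on the strand of the gene), with GGGAA and its reverse complement TTCCC in capitals. They lie at chr13:4150647-4150896 (minus strand) for Akr1c18, chrX:94542026-94542275 (minus) for Maged1, chr6:90550543-90550792 (plus) for Aldh1l1 and chr11:29373408-29373657 (plus) for Ccdc88a.
Akr1c18: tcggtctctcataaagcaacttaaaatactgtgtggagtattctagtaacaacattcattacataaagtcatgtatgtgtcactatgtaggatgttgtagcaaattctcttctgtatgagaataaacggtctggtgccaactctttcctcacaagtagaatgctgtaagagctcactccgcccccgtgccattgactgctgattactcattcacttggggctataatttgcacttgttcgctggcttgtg
Maged1: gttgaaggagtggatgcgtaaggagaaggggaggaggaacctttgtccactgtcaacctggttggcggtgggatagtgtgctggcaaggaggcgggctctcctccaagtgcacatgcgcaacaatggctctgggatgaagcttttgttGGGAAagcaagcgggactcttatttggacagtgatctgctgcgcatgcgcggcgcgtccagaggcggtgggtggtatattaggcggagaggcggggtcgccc
Aldh1l1: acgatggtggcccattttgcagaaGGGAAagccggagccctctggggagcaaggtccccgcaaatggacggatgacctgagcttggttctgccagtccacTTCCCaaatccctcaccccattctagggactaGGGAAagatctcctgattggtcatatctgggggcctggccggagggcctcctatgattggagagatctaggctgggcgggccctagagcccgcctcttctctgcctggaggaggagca
Ccdc88a: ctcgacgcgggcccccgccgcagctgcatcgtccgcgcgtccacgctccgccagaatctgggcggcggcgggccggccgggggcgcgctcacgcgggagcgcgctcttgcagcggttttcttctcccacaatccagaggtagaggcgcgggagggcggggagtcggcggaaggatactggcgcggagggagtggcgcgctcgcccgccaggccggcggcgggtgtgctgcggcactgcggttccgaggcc
The promoter of Maged1 held 1 match, starting 102 bases before the start of the gene, and that of Aldh1l1 held 3. Those of Akr1c18 and Ccdc88a held 0 in this window, although Ccdc88a lay far from wild type in both mutants. A match is a string of letters and not a bound site.

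Over the 70 opposed genes outside the Pcdhg cluster with an entry (86 promoters of 300 bases, 250 before the start and 50 after), GGGAA was found on either strand in 57.0% of promoters, against 64.2% of the promoters of tested genes and 62.7% of all promoters. The longer TGGGAA, which contains GGGAA, was found in 22.1%, 22.7% and 25.6%, the RUNX motif TGTGGT in 13.95%, 12.6% and 16.8%, and the E box CANNTG in 62.8%, 63.3% and 72.3%. GGGAA was thus in a smaller share of the promoters of opposed genes (49 of 86) than of tested genes. Its mean number of matches per promoter went the other way, at 1.12 against 1.07. The other 3 motifs were in shares within 2 percentage points, and no test was made of these values. The median GC content of the promoters of opposed genes was 57.5%, against 60.7% and 52.7%.

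The protocadherin gamma cluster encodes cell surface adhesion molecules that neurons use to tell themselves from other cells. Each isoform joins its own first exon to the same 3 constant exons. In the annotation the cluster lies at 37833989 to 38001527 on the plus strand of chromosome 18, and its constant exons lie at 37984675 to 37984733, 37992919 to 37993007 and 37999557 to 38001527. These 2119 bases make up 45.8% of the median length of the 22 table entries, so reads over them enter each entry and the entries are not separate measurements.

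The median of the 22 entries was 2.14, 2.38 and 3.20 RPKM in wild type, 1.91 and 1.80 in ZnF1-/- and 9.46 and 11.8 in ZnF4-/-. ZnF4-/- stood well apart from the rest, while ZnF1-/- was close to the lowest wild type library. Taken as 1 feature, the cluster had a log2 change of -0.37 ± 0.19 in ZnF1-/- and 1.86 ± 0.19 in ZnF4-/-. Within a library the 21 entries other than Pcdhgc3 varied with a CV of only 3.62% to 6.64%. Pcdhgc3 stood above the others in 6 of the 7 libraries, the exception being ZnF1-/- replicate 1, where the highest of the others was at 2.31 RPKM. It was at 2.81, 2.94 and 3.93 RPKM in wild type, 2.06 and 2.16 in ZnF1-/- and 13.4 and 16.7 in ZnF4-/-. Its log2 change in ZnF4-/- was 2.06, the largest of the 22, whose range was 1.72 to 2.06.

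**Figure D3:**
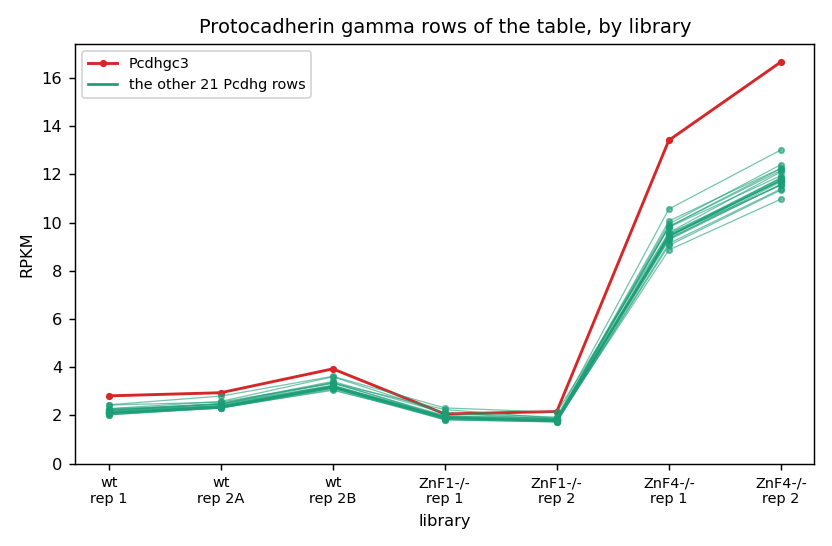
RPKM (vertical axis) of the 22 protocadherin gamma entries in each of the 7 libraries (horizontal axis), 1 line per entry, with Pcdhgc3 in red. The 21 other lines lie almost on each other in every library, at 8.86 to 13.01 RPKM in ZnF4-/- and at 1.73 to 3.62 RPKM in the others, and Pcdhgc3 lies above them in ZnF4-/-.

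The 98 opposed genes outside the Pcdhg cluster are described by what they encode, in groups assigned after the genes were known. Adhesion and guidance molecules (8 genes) had the largest median log2 change of these groups in ZnF4-/- (1.68, and -0.49 in ZnF1-/-). Ptgfrn, a tetraspanin-associated immunoglobulin superfamily protein, was at 2.12, 2.11 and 2.32 RPKM in wild type, 1.21 and 1.30 in ZnF1-/- and 9.22 and 10.4 in ZnF4-/-. Flrt1, a leucine-rich repeat adhesion protein of neurons, was at 0.49 to 0.65 RPKM in wild type, 0.35 and 0.34 in ZnF1-/- and 4.01 and 3.04 in ZnF4-/-. Itgae encodes CD103, the integrin chain by which T cells hold on to E-cadherin (chromosome 11, 72904085 to 72960948). It was at 5.02, 6.53 and 5.67 RPKM in wild type, 2.92 and 3.79 in ZnF1-/- and 12.2 and 17.8 in ZnF4-/-.

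Sema4a, a semaphorin that also acts on T cells (chromosome 3, 88239881 to 88265104), was at 7.75, 9.21 and 8.64 RPKM in wild type, 5.68 and 7.16 in ZnF1-/- and 23.4 and 24.8 in ZnF4-/-. In ZnF1-/- replicate 2 it was close to the lowest wild type library, while its ZnF4-/- libraries were over 2 times the highest. Itgae and Sema4a were thus the more abundant of this group, and Npnt, Lphn2 and Flrt1 were under 1 RPKM in wild type.

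Enzymes (16 genes) ran from Akr1c18, Aldh1l1, Pcsk1 and Scd1 above to genes with ratios just over 2. Adam19, a membrane metalloproteinase that sheds growth factors (chromosome 11, 45868004 to 45960845), was at 2.54, 3.17 and 2.61 RPKM in wild type, 1.28 and 1.73 in ZnF1-/- and 19.1 and 14.2 in ZnF4-/-. Pyroxd2, a mitochondrial oxidoreductase, was at 1.01 to 1.27 RPKM in wild type, 0.72 and 0.68 in ZnF1-/- and 6.68 and 7.35 in ZnF4-/-. Fut10, of the fucosyltransferase family, was at 1.51 to 1.79 RPKM in wild type, 0.58 and 0.55 in ZnF1-/- and 4.84 and 5.66 in ZnF4-/-. The gap between the nearest ZnF1-/- and wild type libraries was 0.81 RPKM for Adam19, 0.93 for Fut10 and 0.29 for Pyroxd2, whose log2 change of -0.48 ± 0.17 in ZnF1-/- was below the median size.

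Ctsw and Ctss encode cathepsins, proteases of cytotoxic lymphocytes and of antigen-presenting cells. Ctsw was at 15.7, 19.7 and 16.7 RPKM in wild type, 8.27 and 11.8 in ZnF1-/- and 23.2 and 25.4 in ZnF4-/-, so that its lower arm was the wider one (-0.77 ± 0.19 against 0.48 ± 0.19 log2 units). Ctss was at 12.5, 13.7 and 11.7 RPKM in wild type, 9.40 and 9.84 in ZnF1-/- and 16.8 and 25.4 in ZnF4-/-. Myeloid and dendritic markers, to which Ctss belongs, were summed beside it. The sum was taken over all 23 markers with values, of which 15 were tested. It was 207 to 254 RPKM in wild type, 140 and 219 in ZnF1-/- and 274 and 683 in ZnF4-/-. Without Ctss it was 196 to 241, 131 and 209, and 249 and 666. The sum was thus above the wild type range in both ZnF4-/- libraries, while in ZnF1-/- it was below it in replicate 1 and within it in replicate 2. Of the 15 markers 0 were called by limma in either mutant against wild type, and with the replicate block 3 were called higher in ZnF4-/- and 0 called in ZnF1-/-. None of the 23 markers in the table was under 0.1 RPKM everywhere, and the monocyte and macrophage gene Lyz2 was at 26.5 to 39.9 RPKM in wild type, 20.5 and 39.5 in ZnF1-/- and 56.8 and 73.9 in ZnF4-/-. The part of such cells in the level of Ctss was not tested, and in whole thymus more cells of a type and more RNA per cell cannot be told apart.

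Immune receptors and ligands (13 genes) had median log2 changes of equal size, -0.63 in ZnF1-/- and 0.63 in ZnF4-/-. Of these Tnfsf11, Ccr6, Ccr8, Il9r, Pdcd1, Cd226, Nt5e and Cd86 were named after their values had been seen. Tnfsf11 encodes RANKL, the ligand through which thymocytes act on medullary epithelial cells. It was at 1.24, 1.38 and 1.46 RPKM in wild type, 0.72 and 0.86 in ZnF1-/- and 3.95 and 4.88 in ZnF4-/-. Tnfrsf4, the costimulatory receptor OX40, was at 9.02, 10.5 and 12.3 RPKM in wild type, 6.00 and 7.91 in ZnF1-/- and 15.4 and 19.6 in ZnF4-/-. Tnfrsf4 was the more abundant of this pair of tumour necrosis factor family members and Tnfsf11 had the larger ratio, at 5.59 against 2.52.

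Chemokine and cytokine receptors came next. Ccr8, a receptor of activated and regulatory T cells, was at 6.91, 8.44 and 8.95 RPKM in wild type, 4.98 and 4.15 in ZnF1-/- and 17.0 and 26.5 in ZnF4-/-. Ccr6, carried by cells that make interleukin 17 among others, was at 1.25, 1.16 and 1.18 RPKM in wild type, 0.38 and 0.67 in ZnF1-/- and 2.39 and 3.27 in ZnF4-/-. Wild type varied little for Ccr6, and for both receptors ZnF4-/- replicate 2 stood highest. Il9r, the interleukin 9 receptor, was at 1.48 to 1.86 RPKM in wild type, 0.90 and 1.17 in ZnF1-/- and 3.44 and 3.84 in ZnF4-/-. Il17re, a receptor chain for interleukin 17C, was at 3.52, 4.73 and 3.97 RPKM in wild type, 1.89 and 1.64 in ZnF1-/- and 5.31 and 5.23 in ZnF4-/-. Its difference from wild type was larger in ZnF1-/- (-1.01 ± 0.17) than in ZnF4-/- (0.34 ± 0.17).

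Ly6a and Ms4a6b shared that lean to the ZnF1-/- side. Ly6a, the surface antigen Sca-1, was at 6.33, 5.19 and 6.34 RPKM in wild type, 2.77 and 2.43 in ZnF1-/- and 7.26 and 9.57 in ZnF4-/- (-1.06 ± 0.17 and 0.46 ± 0.17 log2 units). Ms4a6b, a membrane protein of mature T cells (chromosome 19, 11591002 to 11605746), was at 25.01, 20.7 and 20.7 RPKM in wild type, 11.9 and 12.6 in ZnF1-/- and 29.8 and 34.7 in ZnF4-/-. Its neighbour Ms4a4c, 89266 bases away, was at 1.37, 0.94 and 0.95 RPKM in wild type, 0.65 and 0.57 in ZnF1-/- and 1.45 and 1.69 in ZnF4-/-. The Ms4a and Ly6 genes have close relatives, and reads may be split between them in a way the sources used here do not state.

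The checkpoint receptor gene Pdcd1 was at 6.29, 8.46 and 7.70 RPKM in wild type, 3.88 and 5.24 in ZnF1-/- and 9.81 and 14.1 in ZnF4-/-. Cd226, an activating receptor, was at 4.95 to 6.4 RPKM in wild type, 4.10 and 3.97 in ZnF1-/- and 8.31 and 9.21 in ZnF4-/-. Nt5e, the ectonucleotidase CD73, was at 1.15 to 1.41 RPKM in wild type, 0.56 and 0.80 in ZnF1-/- and 1.62 and 2.45 in ZnF4-/-. Cd86, a costimulatory ligand of antigen-presenting cells, was at 1.14 to 1.34 RPKM in wild type, 0.74 and 0.59 in ZnF1-/- and 1.48 and 1.54 in ZnF4-/-. Its upper arm was the narrowest of all opposed genes, at 0.22 ± 0.18 log2 units, about the size of its own error. Markers of B cells, which also carry Cd86, had a summed level of 23.2 to 28.6 RPKM in wild type, 28.4 and 37.6 in ZnF1-/- and 19.1 and 23.8 in ZnF4-/-, the reverse order.

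**Figure D4:**
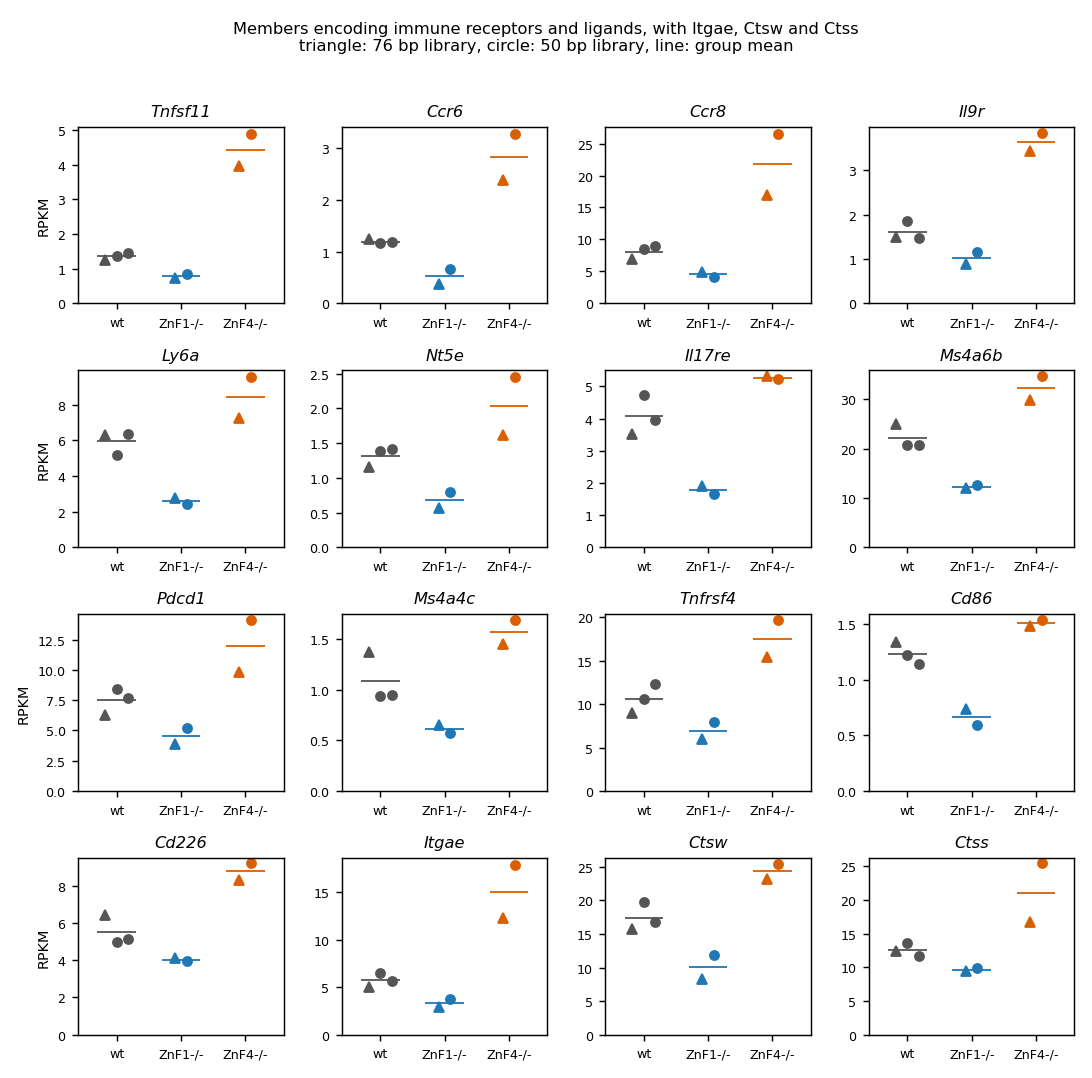
RPKM (vertical axis, from 0) of the 13 opposed genes encoding immune receptors and ligands, with Itgae, Ctsw and Ctss, in each library by genotype; triangles are 76 bp libraries, circles 50 bp libraries, lines group means. Il17re, Ly6a and Ms4a6b lie farther below wild type in ZnF1-/- than above it in ZnF4-/-, and Tnfsf11, Ccr8 and Itgae show the opposite.

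Nuclear and RNA-binding proteins (13 genes) had median log2 changes of -0.54 in ZnF1-/- and 0.95 in ZnF4-/-. The linker histone gene H1f0, which marks differentiated and resting cells, was at 17.2, 24.03 and 19.7 RPKM in wild type, 16.2 and 11.9 in ZnF1-/- and 44.2 and 39.1 in ZnF4-/-. H1fx, another linker histone, varied more in wild type, relative to its mean, than any other opposed gene (2.61, 10.8 and 6.97 RPKM), and was at 2.24 and 2.19 in ZnF1-/- and 12.8 and 12.9 in ZnF4-/-. Its SE of 0.47 log2 units against wild type was over 2 times the median of the opposed genes (0.20), and its exons overlap those of another gene. Oas3, an antiviral enzyme induced by interferon, was at 3.35, 3.62 and 4.41 RPKM in wild type, 3.33 and 2.5 in ZnF1-/- and 7.32 and 9.14 in ZnF4-/-. In ZnF1-/- replicate 1 it was only 0.02 RPKM below wild type.

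The transcription factor genes Rarg, Nfix and Fosl2 were also named after their values had been seen. Rarg, a retinoic acid receptor, was at 1.40, 1.80 and 2.02 RPKM in wild type, 0.93 and 0.89 in ZnF1-/- and 3.78 and 5.29 in ZnF4-/-. Nfix was at 1.01, 1.58 and 1.56 RPKM in wild type, 0.69 and 0.97 in ZnF1-/- and 2.97 and 3.22 in ZnF4-/-, and its exons overlap those of Lyl1. Lyl1 did not follow it, at 0.68 to 1.07 RPKM in wild type, 1.38 and 1.78 in ZnF1-/- and 1.25 and 0.80 in ZnF4-/-. Fosl2, an AP-1 subunit, was at 0.95 to 1.28 RPKM in wild type, 0.59 and 0.82 in ZnF1-/- and 2.06 and 2.47 in ZnF4-/-.

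Proteins of signalling, trafficking and the cytoskeleton (22 genes, Ccdc88a and Spry2 among them) had median log2 changes of -0.51 and 0.83. Syt13, of the synaptotagmin family (chromosome 2, 92755255 to 92796215), was the most abundant opposed gene, at 20.1, 44.1 and 28.1 RPKM in wild type, 12.6 and 14.9 in ZnF1-/- and 49.4 and 77.3 in ZnF4-/-. In ZnF4-/- replicate 1 it was close to wild type replicate 2A, and within genotypes it was higher in 50 bp libraries by 0.58 log2 units (limma with group and batch, adjusted p = 0.0258). Plekhf1, a protein of endosomes and lysosomes, was at 2.97, 4.24 and 3.67 RPKM in wild type, 0.73 and 1.37 in ZnF1-/- and 6.00 and 7.15 in ZnF4-/-. Tuba8, an alpha-tubulin, was at 2.85 to 3.91 RPKM in wild type, 1.29 and 1.84 in ZnF1-/- and 8.25 and 10.8 in ZnF4-/-. In both genes the groups lay well apart, with the lower arm of Plekhf1 (-1.43 ± 0.23) wider than the upper (0.78 ± 0.23).

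Fgd1, an exchange factor for the small GTPase Cdc42, was at 0.68 to 1.08 RPKM in wild type, 0.20 and 0.44 in ZnF1-/- and 1.75 and 1.98 in ZnF4-/-, and its exons overlap those of Tsr2. Capg, an actin-capping protein, was at 5.01, 6.26 and 5.86 RPKM in wild type, 2.13 and 4.59 in ZnF1-/- and 6.91 and 10.01 in ZnF4-/-. The 2 ZnF1-/- libraries of Capg were farther apart than wild type and ZnF1-/- replicate 2 were.

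Of 7 other surface receptors and channels (median log2 changes of -0.63 and 0.75), Tspan31, a tetraspanin, had the smallest SE of all opposed genes against wild type (0.12 log2 units). It was at 7.35, 7.67 and 7.37 RPKM in wild type, 6.16 and 6.23 in ZnF1-/- and 18.8 and 19.1 in ZnF4-/-. Its exons overlap those of Cdk4, which was at 52.4 to 77.5 RPKM in wild type, 49.8 and 68.9 in ZnF1-/- and 45.5 and 68.2 in ZnF4-/- and so did not share the pattern. The sources used here do not state whether the counting used the strand.

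The last group (19 genes of other or unknown function, Maged1, Gm4371 and Dapl1 among them) had median log2 changes of -0.50 and 0.86. Ccdc153, a coiled-coil protein (chromosome 9, 44048760 to 44055389), was the most abundant of the opposed genes with a ratio over 10 in every group. It was at 6.05, 9.40 and 7.79 RPKM in wild type, 1.97 and 2.29 in ZnF1-/- and 23.6 and 26.6 in ZnF4-/-, with log2 changes of equal size (-1.63 ± 0.20 and 1.65 ± 0.20). Vwce, a secreted protein with von Willebrand factor C domains, was at 0.85 to 1.10 RPKM in wild type, 0.62 and 0.60 in ZnF1-/- and 4.70 and 4.30 in ZnF4-/-. Rnf39, a RING finger protein, was at 0.76 to 1.27 RPKM in wild type, 0.50 and 0.60 in ZnF1-/- and 4.71 and 6.4 in ZnF4-/-. Tceal8 was at 0.50 to 0.60 RPKM in wild type, 0.39 and 0.47 in ZnF1-/- and 3.27 and 2.27 in ZnF4-/-. In these last 3 genes the lower arm was under 0.5 RPKM and the upper arm over 3 times wild type.

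**Figure D5:**
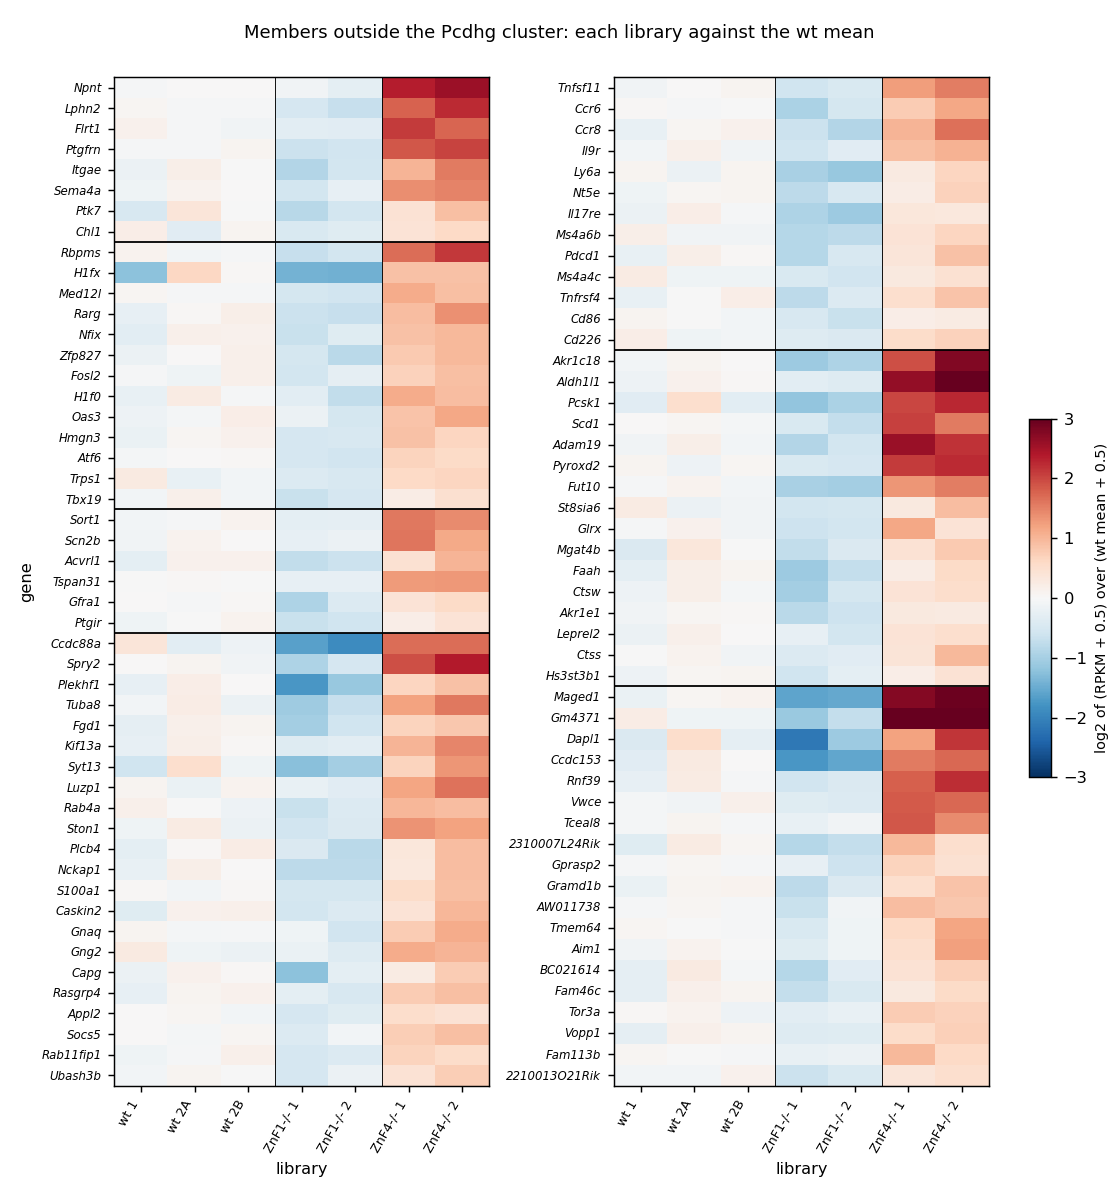
Opposed genes outside the Pcdhg cluster (rows, 97 of 98) in each library (columns), as log2 of (RPKM + 0.5) over (wild type mean + 0.5), blue below and red above wild type, with colours capped at 3 in either direction. Black lines separate the role groups (adhesion; nuclear; other receptors and channels; signalling, trafficking and cytoskeleton; immune; enzymes; other), and deep reds are more frequent than deep blues.

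The 24 opposed genes with the larger distance from wild type in ZnF1-/- were all outside the Pcdhg cluster. They included Ccdc88a, Plekhf1, Fgd1 and H1fx, as well as Ly6a, Il17re, Ms4a6b, Ms4a4c, Ctsw, Capg and, named after their values had been seen, Nt5e, Pdcd1 and Cd86. Among the 11 called lower in ZnF1-/- against wild type with the replicate block were Maged1, Ccdc153, Ccdc88a, Plekhf1, Fut10, Ly6a, Il17re, Ms4a6b and Ctsw, with Faah named after its values had been seen. Faah, which degrades endocannabinoids, was at 7.50, 10.5 and 9.81 RPKM in wild type, 4.13 and 5.44 in ZnF1-/- and 11.0 and 13.96 in ZnF4-/-. It stood nearer to wild type, on the log2 scale, in ZnF4-/- than in ZnF1-/-.

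Of 14 marker lists, 6 held an opposed gene. Medians and calls of a list are over its tested genes. Summed levels are over all its genes with values, tested or not. The list of mature single-positive and egress genes held 4 (Ms4a6b, Ms4a4c, Itgae and Dapl1) of 24 tested. The median of that list was -0.25 in ZnF1-/- and 0.45 in ZnF4-/-, and its summed level was 958 to 1044 RPKM in wild type, 836 and 947 in ZnF1-/- and 906 and 1129 in ZnF4-/-. In ZnF4-/- 3 of the 24 were called higher against wild type, 12 with the replicate block, where 1 was called lower. In ZnF1-/- 0 were called by limma and 1 was called lower with the block. The levels of 0 of these markers were under 0.1 RPKM everywhere.

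Regulatory T cell markers held Tnfrsf4 and Capg of 13 tested, with medians of -0.12 and 0.55 and summed levels of 110 to 125 RPKM in wild type, 95.6 and 124 in ZnF1-/- and 153 and 198 in ZnF4-/-. Interferon-stimulated genes held Oas3 and Ly6a of 35 tested, with medians of 0.04 and 0.65 and summed levels of 754 to 835, 821 and 834, and 1031 and 1137 RPKM. The list as a whole thus stood above wild type in ZnF4-/- and within its range in ZnF1-/-, unlike Ly6a. Cytotoxic and NK genes held Ctsw of 9 tested (medians -0.25 and 0.34, summed levels 83.7 to 102, 72.3 and 73.8, and 131 and 141 RPKM), effector cytokines and receptors held Il17re of 10 (0.10 and 0.14; 242 to 348, 308 and 404, and 212 and 275 RPKM), and the myeloid list held Ctss (-0.30 and 0.52). In the cytotoxic list 1 of 19 listed genes, Klrc2, was under 0.1 RPKM everywhere.

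The other 8 lists held 0 opposed genes, though the B cell and innate-like lists each held 1 gene that met the conditions and was left out by name. They were B cell (4 tested), thymic epithelial (5), stromal and endothelial (2), erythroid (6), double-positive thymocyte (12), early progenitor (4), innate-like lymphocyte (15) and MHC and antigen presentation genes (13). The medians of the B cell list were -1.16 in ZnF1-/- and 0.03 in ZnF4-/- against wild type, and those of the innate-like list -0.34 and 0.37. Of the 15 innate-like genes 6 were called higher in ZnF4-/- against ZnF1-/-, where 2.02% of all tested genes were. With the replicate block 6 were called higher and 2 lower in ZnF4-/- against wild type. The innate-like sum was 188.1 to 221.6 RPKM in wild type, 174.5 and 187 in ZnF1-/- and 182 and 196.5 in ZnF4-/-, so it was not above wild type in ZnF4-/-. Thymic epithelial markers summed to 18.4 to 24.4 RPKM in wild type, 14.2 and 20.2 in ZnF1-/- and 49.0 and 56.6 in ZnF4-/-. The medians of that list were only -0.07 in ZnF1-/- and 0.13 in ZnF4-/-, so its sum rose without a like rise of its median gene. In ZnF4-/- against wild type 2 of its 5 tested genes were called higher, where 2.24% of all tested genes were. Of its genes, Foxn1, Krt14 and Dll4 were under 0.1 RPKM everywhere. Erythroid markers summed to 42.3 to 72.2, 33.6 and 69.8, and 110 and 129 RPKM, and double-positive markers to 3194 to 4044, 3243 and 3662, and 2375 and 2794 RPKM. In the stromal list Pdgfra, Lum and Vwf were under 0.1 RPKM everywhere. The part of the cell makeup in the levels of the opposed genes was not tested.

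The contrast of 50 bp with 76 bp libraries was not used directly by the rule, although a gene with a large batch difference rarely meets it. With group as a term, 15 of the 120 opposed genes differed by limma (adjusted p under 0.05), all outside Pcdhg and all higher in the 50 bp libraries, where 41.3% of tested genes differed. The median batch difference was 0.18 log2 units in the opposed genes and 0.20 over all tested genes. The rule itself requires each mutant library to lie outside the wild type range, so the ratio within a batch is largely fixed by the choice of genes. The median ratio of ZnF4-/- to ZnF1-/- was 3.74 over all libraries, 3.88 within the 76 bp and 4.07 within the 50 bp libraries, and it was at least 2 in 116 of 120 genes within each. Without the Pcdhg entries the medians were 3.16, 2.86 and 3.30. The 50 bp ZnF4-/- library was the higher one in 94 of the 120, and in 72 of the 98 outside Pcdhg. Over all tested genes the share was 66.8%.

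Nearness to the limits of the rule varied. The ratio was 10 or more in 17 opposed genes, 5 to 10 in 33, 3 to 5 in 24 and 2 to 3 in 46. Without the Pcdhg entries these counts were 17, 12, 23 and 46. The nearest ZnF1-/- library was less than 10% below the lowest wild type library in 36 genes, 26 of them outside Pcdhg. The nearest ZnF4-/- library was less than 10% above the highest in 11, all outside Pcdhg. Just inside the ratio of 2 were Ubash3b (2.09), Fam113b (2.05, with exons overlapping those of Amigo2), Hs3st3b1 (2.04) and 2210013O21Rik (2.02). Of these 2210013O21Rik was at 19.3, 19.2 and 22.4 RPKM in wild type, 12.7 and 14.8 in ZnF1-/- and 26.3 and 29.2 in ZnF4-/-. Just outside were Ccnd2 (1.99), Decr2 (1.98), Plekha5 (1.96) and Degs2 (1.96). Ccnd2, the gene of cyclin D2, was at 30.4, 31.8 and 33.6 RPKM in wild type, 19.6 and 27.0 in ZnF1-/- and 33.7 and 59.1 in ZnF4-/-. The genes just outside were picked from those that met all other conditions of the rule, so their like pattern was fixed by that choice.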

How the data were processed

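Polyadenylated RNA of 7 whole-thymus libraries was analysed (3 wild type, 2 ZnF1-/-, 2 ZnF4-/-). The authors deposited RPKM per gene, rounded to 2 decimals. Reads were aligned with TopHat to build mm9 and bedtools was used, per the submitters' processing notes, and exonic reads were counted in SeqMonk with the NCBI annotation, per the labels' series design text, which keeps 1 transcript per gene and genes with at least 1 read. Versions are not given in the sources used here.

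The members, lists and tests were chosen with earlier results of these data known. Values were transformed as log2(RPKM + 0.5), which understates changes of low genes, and the 10498 genes with a mean of 1 RPKM or more were fitted with limma 3.58.1 (lmFit, eBayes with a trend) in R 4.3.3, with all groups in 1 fit, 4 residual and 3.26 prior degrees of freedom, and Benjamini-Hochberg adjustment over all of them at 0.05. All p are two-sided. The fit was tested on simulated data. Labels permuted between 3 and 2 libraries cannot give a p under 0.1, so no permutation test was run. Nothing in the labels ties replicates to separate animals. By Xist and Ddx3y, replicate 1 differed in sex from the other replicates, so these came from different animals. Whether wild type 2A and 2B did is not known. The p thus measures the spread between these samples, which without the block includes the difference of batch and sex. The SD of the log2 ratio between 2 libraries was estimated from the median absolute deviation over all tested genes, which gives little weight to extreme genes. It was 0.157 for wild type 2A to 2B, and 0.138 for 2A to ZnF1-/- replicate 2.

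Replicate number 1 marks the 76 bp batch, per the labels' protocols, so the number pairs libraries. Deviations from the group mean correlated at 0.489 to 0.737 across genes in the 8 cross-group pairs with the same number. A fit with the number as a block is given where it changes a count by more than 1.5 times.

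Values of 1 member are not reported here. Genes named were the 40 with the largest ratio, with values in every library for the first 12, the 8 with the highest mean, those on a marker list, those called (up to 10 per contrast) and 4 on either side of the ratio of 2. Positions are from GENCODE M1 (mm9), in which 98 of 120 members matched a symbol, as the Pcdhg entries share 1 gene, and promoters are from RefSeq (GRCm38.p6). Alternatives were other pseudocounts, filters and scalings, the block, averaging of 2A and 2B, leaving out each library, and Pcdhg as 1 feature, the last chosen after seeing the data.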

Additional observations from a re-analysis of the deposited data

How the results depend on the processing

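Across all alternatives, 2661 recomputed log2 changes of 58 named members kept their direction, with 0 reversed; 123 lost and 44 gained a call. The direction is fixed in part by how members were chosen, so this says little about stability. Members called lower in ZnF1-/- against wild type numbered 1, and 0 with a pseudocount of 1 RPKM, with no filter on low values, with a mean of 2 RPKM or more and with 2A and 2B averaged, 3 with a common median, 2 with quantile normalization, 11 with the replicate block, which follows the sequencing batch, and 0 to 2 when each library was left out. Members called higher in ZnF4-/- against wild type numbered 60, 98 with the replicate block, 38 with protocadherin gamma as 1 feature (chosen after seeing the data), and 10 to 55 with each library left out, the lowest without ZnF4-/- replicate 2, where 110 members were fitted. Calls between the mutants numbered 98, and 46 to 104 with each library left out. Calls between batches numbered 15, 4 with no filter, 3 with a common median, 4 with quantile normalization, and 4 to 13 with each library left out. The cause of these shifts was not tested, other than that fewer libraries leave fewer degrees of freedom. The rule gave 120 genes, 74 with a ratio of 3, and 120 to 274 with each library left out, since fewer conditions then apply; it gave 274 without ZnF1-/- replicate 2 and 187 without wild type replicate 1. The median log2 change between the mutants, 1.54, was 1.85 with a pseudocount of 0.1 RPKM. With a common median 136 genes met the rule, 110 of them members, and with quantile normalization 120, of which 103 were members. Of the 76 bp libraries, whose depth alone could be estimated, ZnF1-/- replicate 1 had 27 members under 30 reads, which limits their precision there; members were chosen for low values in ZnF1-/-.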

Other observations

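Apart from Pcdhg, the opposed genes were spread over the genome. Of the 97 with a position, 10 lay on chromosome 19 (10.3%, against 3.73% of tested genes), among them Scd1, Ctsw, Ms4a6b, Ms4a4c, Flrt1, Pyroxd2 and Vwce, and 0 lay on chromosome 12, which holds 3.45% of tested genes. Only 2 pairs were neighbours within 200000 bases, Ms4a4c with Ms4a6b, and Tnfrsf4 with AW011738 at a gap of 186692 bases on chromosome 4. AW011738, named after its values were seen, was at 4.63 to 5.05 RPKM in wild type, 2.83 and 4.43 in ZnF1-/- and 9.55 and 8.70 in ZnF4-/-. Exons of 18 of the 97 (18.6%) overlapped another annotated gene, against 28.6% of tested genes. Those of 8 of the 97 overlapped another coding gene, where 20.6% of tested genes did. These shares are descriptions, and no test was made of them.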
